A study of Mus musculus with 11 samples.

Results

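The genes described here are 30 markers of brain cells other than microglia, measured in 11 libraries of sorted mouse microglia: 13 neuron genes, 7 astrocyte genes, 6 oligodendrocyte genes and 4 endothelial genes. They were chosen by gene name as markers of these classes and found in a table of 55401 genes, where each name matched 1 row. The study asked how Inpp5d, the gene of the lipid phosphatase SHIP1, bears on the loss of TREM2 signalling in mice that deposit amyloid. Cells that were alive and carried CD11b and CD45 were sorted from the brain of mice of the C57BL/6 strain aged 9 to 10 months. The libraries were 3 of NLGF, 3 of Inpp5d+/-;NLGF with 1 mutant Inpp5d copy, 2 of Tyrobp-/-;NLGF with no intact Tyrobp copy, and 3 of Tyrobp-/-;Inpp5d+/-;NLGF, called the compound mutant. All 4 groups carried NLGF, an App knock-in that gives amyloid plaques, and no library without it was analysed. Tyrobp encodes DAP12, the membrane adaptor that carries the signal of TREM2 in microglia.

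A sort on surface proteins keeps whole cells, but RNA from broken cells and small cell fragments of the tissue can pass with them, so genes that a second cell class uses heavily serve as a measure of what else a sorted library holds. Neurons use genes of synaptic vesicles and of the axon skeleton, astrocytes take up glutamate and pass water and ions, oligodendrocytes wrap axons in myelin, and endothelial cells line vessels and respond to VEGF. Some genes on such lists are also used by blood and immune cells, so that a marker alone does not name a cell. In bulk RNA, more cells of a class and more RNA per cell cannot be told apart.

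Library totals ran from 29490567 to 66637052 counts. Levels are counts per 1000000 counts (CPM) on scaled library sizes, and 3 counts, the most that a count of 0 allows, came to 0.0477 to 0.1 CPM. Tyrobp was at 1950 to 2560 CPM in the 6 libraries with both copies and at 3.22 to 8.94 CPM in the 5 Tyrobp-/- libraries, as labelled, while Inpp5d overlapped between 5 libraries with both copies (205 to 449 CPM) and 6 heterozygous ones (190 to 280 CPM). The sum of 15 microglial markers was 55360 to 62530 CPM, with every marker present in each library. The sum of 12 neutrophil markers was 0.641 to 233.2 CPM in the 6 libraries with Tyrobp and 256 to 19150 CPM in the 5 without. The numbers in the sample titles also split by Tyrobp genotype into ranges that do not overlap, so handling or litter cannot be told apart from that genotype.

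The 30 genes together came to 373 to 489 CPM, and most of that sum was not spread over the classes. Slc1a3, Cnp, Mbp and Mag alone held 87.1% to 94.3% of the counts, and the other 26 genes added up to 27.5 to 53.8 CPM. Of 330 values (30 genes in 11 libraries) 98, or 29.7%, were 0. The share was 36.4% for neuron genes, 24.7% for astrocyte genes, 24.2% for oligodendrocyte genes and 25% for endothelial genes. A filter on low counts kept 25 of the 30 for tests. It removed the GABA-synthesis gene Gad2, the neurofilament genes Nefl and Nefm, and the claudins Cldn11 of myelin and Cldn5 of vessel walls.

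**Figure D1:**
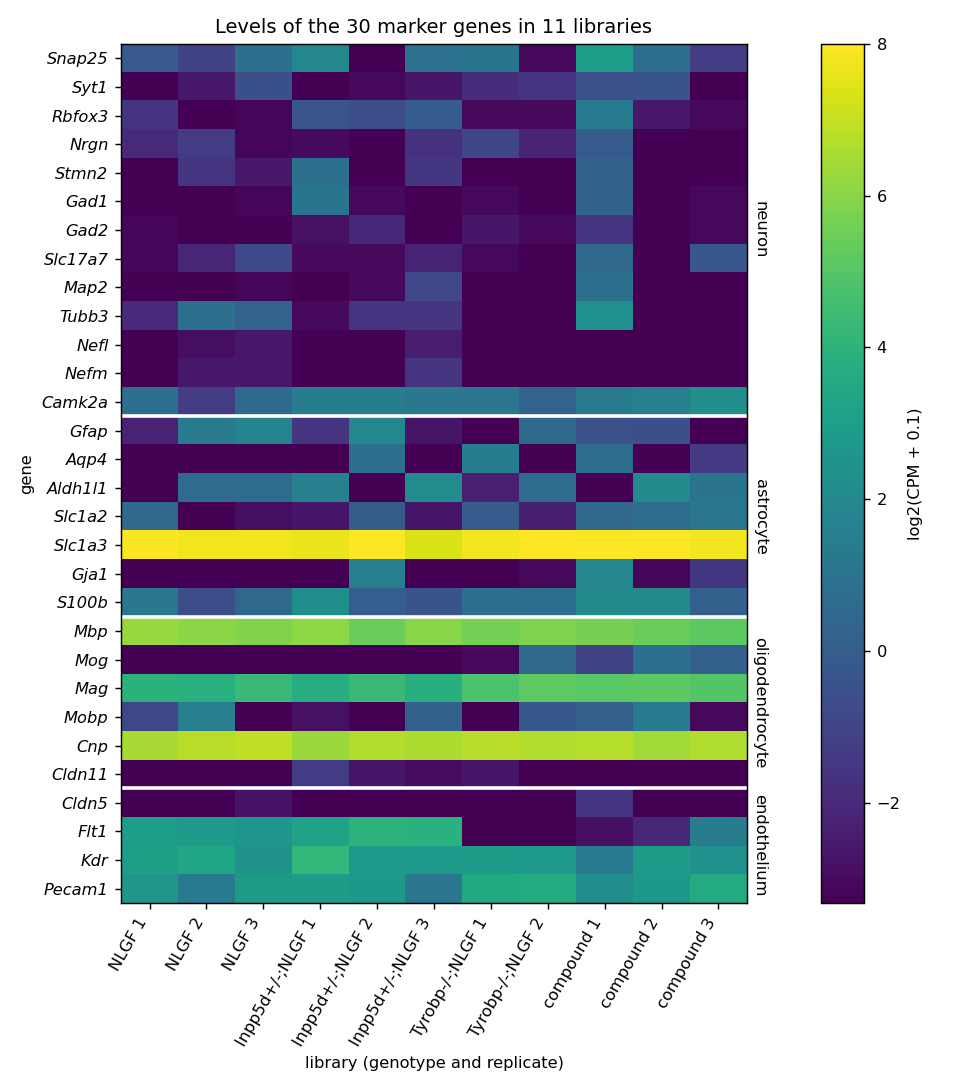
Levels of the 30 genes (rows, grouped by class) in the 11 libraries (columns), as log2(CPM + 0.1) by colour. Slc1a3, Cnp, Mbp and Mag are bright in every library, most other rows are dark with single bright cells, Flt1 is dark in the Tyrobp-/- and compound libraries except compound replicate 3, and compound replicate 1 is the brightest column among the neuron genes.

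Divided by gene length, the highest median levels were 28.02 CPM per kilobase for Cnp and 26 for Slc1a3, followed by 6.57 for Mbp and 5.03 for Mag. S100b, Pecam1, Kdr and Flt1 had medians of 1.09, 1.05, 0.772 and 0.450 CPM per kilobase. The order of these last 4 is not firm, because their libraries ranged over 0.360 to 3.29, 0.342 to 2.01, 0.263 to 2.00 and 0 to 1.17 CPM per kilobase. The medians per kilobase of the remaining 22 genes lay at or below the 0.324 of Aldh1l1. In many of the libraries that held these 4 leading genes, other markers of the same class were at or near 0. The source of their RNA was not tested.

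Among the astrocyte genes, Slc1a3, a glutamate transporter, was at 244, 217 and 214 CPM in NLGF, 205, 252.5 and 163 in Inpp5d+/-;NLGF, 220 and 257 in Tyrobp-/-;NLGF and 252, 262 and 222 in the compound mutant. Every library was within a narrow span and all groups overlapped. The other glutamate transporter of astrocytes, Slc1a2, reached 2.05 CPM at most. The water channel gene Aqp4 had no count in 7 libraries and the gap junction gene Gja1 none in 6. Gfap, the intermediate filament of astrocytes, ranged from 0 to 3.64 CPM, and Aldh1l1, a folate enzyme, from 0 to 4.32 CPM. S100b, a calcium-binding protein, was counted in every library at 0.534 to 4.89 CPM.

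These low astrocyte genes did not move as a set. Inpp5d+/-;NLGF replicate 2 held Gfap at 3.64, Gja1 at 2.73 and Aqp4 at 1.59 CPM, but had no count of Aldh1l1. Tyrobp-/-;NLGF replicate 1 had the highest Aqp4, at 2.65 CPM, with no count of Gja1 or Gfap. Compound replicate 1 had the highest Gja1, at 3.69 CPM, with Aqp4 at 1.51 CPM and no count of Aldh1l1. In NLGF no library had a count of Aqp4 or Gja1, while Gfap was at 0.112, 2.54 and 3.23 CPM.

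Among the oligodendrocyte genes, Cnp, a phosphodiesterase of myelin, was at 92.6, 110 and 119 CPM in NLGF, 79.2, 102 and 97.0 in Inpp5d+/-;NLGF, 109 and 104 in Tyrobp-/-;NLGF and 106, 85.5 and 99.2 in the compound mutant. Its exons overlap those of Dnajc7 on the other strand, which reached 70.9 CPM, and the library kit does not mark strand, so the reads of the 2 genes cannot be told apart there. Mbp, the myelin basic protein, was at 75.4, 66.1 and 57.4 CPM in NLGF, 66.8, 42.0 and 62.9 in Inpp5d+/-;NLGF, 49.4 and 55.7 in Tyrobp-/-;NLGF and 51.7, 44.0 and 34.8 in the compound mutant. Both genes were present in all libraries, whereas Mobp, a second structural myelin gene, ranged from 0 to 2.77 CPM and Cldn11, the myelin tight junction gene, from 0 to 0.307 CPM.

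Among the endothelial genes, Cldn5, the tight junction protein of brain vessels, had no count in 9 of 11 libraries and reached 0.226 CPM in compound replicate 1. Kdr (VEGF receptor 2) was nevertheless counted in every library, at 8.21, 10.2 and 5.36 CPM in NLGF, 18.0, 6.75 and 6.97 in Inpp5d+/-;NLGF, 7.45 and 6.75 in Tyrobp-/-;NLGF and 2.37, 7.64 and 5.13 in the compound mutant. Pecam1, an adhesion molecule of endothelium, platelets and leukocytes, was at 6.27, 2.34 and 7.10 CPM in NLGF, 7.401, 6.55 and 2.13 in Inpp5d+/-;NLGF, 11.8 and 12.5 in Tyrobp-/-;NLGF and 4.79, 6.38 and 12.2 in the compound mutant. Pecam1 was thus highest in both Tyrobp-/-;NLGF libraries and compound replicate 3. The 2 Tyrobp-/-;NLGF libraries lay above every NLGF and Inpp5d+/-;NLGF library (edgeR adjusted p = 0.475 against NLGF), while the compound libraries overlapped all other groups. Between Tyrobp-/-;NLGF and NLGF, 29.6% of all tested genes had no overlap.

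The neuron genes were low in every library, and Camk2a, a kinase of excitatory synapses, was the single one counted in all 11, at 0.300 to 4.69 CPM. Its values were 1.64, 0.300 and 1.35 CPM in NLGF, 2.62, 2.59 and 2.22 in Inpp5d+/-;NLGF, 2.07 and 1.13 in Tyrobp-/-;NLGF and 2.39, 2.77 and 4.69 in the compound mutant. Snap25, a protein of synaptic vesicle fusion, was at 0.785, 0.367 and 1.70 CPM in NLGF, 3.70, 0 and 1.76 in Inpp5d+/-;NLGF, 1.99 and 0.0185 in Tyrobp-/-;NLGF and 8.04, 1.61 and 0.322 in the compound mutant. Its highest value, in compound replicate 1, was more than the sum of all neuron genes in 9 of the other 10 libraries. Tubb3, the neuronal tubulin, was at 0.160, 1.74 and 1.08 CPM in NLGF, 0.0204, 0.221 and 0.230 in Inpp5d+/-;NLGF, and 4.99 CPM in compound replicate 1, with no count in the other 4 Tyrobp-/- libraries.

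Compound replicate 1 stood apart on the neuron genes. Their sum was 24.6 CPM there and 1.54 to 10.9 CPM in the other 10 libraries, with a median of 4.93 CPM, so that the library was 4.996-fold above that median. It held more than 3 counts of 11 of the 13 neuron genes, against 3 to 9 genes elsewhere, and 7 of the 13 had their highest level in it. These included Rbfox3, the neuronal nuclear protein NeuN, at 2.37 CPM, Slc17a7, the vesicular glutamate transporter, at 1.39 CPM, and Map2, a microtubule protein of dendrites, at 1.73 CPM, where the highest values elsewhere were 0.893, 0.744 and 0.432 CPM. Nefl and Nefm had no count in that library. This is 1 library and the level has no replicate and no test.

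The sums of the other classes did not show such a step. The astrocyte sum, most of it Slc1a3, was 263 CPM in compound replicate 1 and 168 to 272 CPM elsewhere, and the oligodendrocyte sum was 194 CPM against 159 to 199 CPM. The log2 ratio of the astrocyte sum to the median of the other libraries was 0.22 with Slc1a3 and 1.06 without it. The low astrocyte genes together were thus above that median, but the library did not stand apart on them. Of the 7 astrocyte genes 1 had its highest level there, and Aldh1l1 had no count. More than 3 counts were found for 6, against 3 to 6 elsewhere. The endothelial sum was the lowest of all libraries, at 7.42 CPM against 14.2 to 34.5 CPM elsewhere. The summed microglial markers of compound replicate 1, 62460 CPM, were within the range of the other libraries. Outside the 30 genes, 22 of 30 further neuron genes had more than 3 counts there, against 9 to 19 elsewhere. The same held for 15 of 20 further astrocyte genes, against 7 to 13, and for 13 of 18 further oligodendrocyte genes, against 5 to 8. The sums of these further lists, however, lay within the range of the other libraries. For further neuron genes the sum was 163 CPM against 110 to 248 CPM elsewhere. It was 497 against 291 to 515 CPM for further astrocyte genes and 697 against 498 to 899 CPM for further oligodendrocyte genes. The summed choroid plexus and ependymal list was 56.7 CPM against 6.91 to 43.3 CPM. In compound replicate 1, 52 of 20390 tested genes (0.255%) were at least 4-fold above every other library with at least 10 counts, against 4 to 39 genes in each other library. They held 1 of the 25 tested marker genes, Map2, and Cldn5 met the same limits but was not tested.

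Among further neuron genes past that limit, named after their values were seen, were Meg3, a noncoding RNA, at 14.3 CPM against at most 1.53 CPM elsewhere, Snhg11, another noncoding RNA, at 12.9 against 0.780 CPM, and Gria2, a glutamate receptor subunit, at 10.1 against 0.366 CPM. Reln, an extracellular matrix protein, was at 0.867 against 0.0201 CPM. Further glial genes passed the limit as well. The astrocyte genes were Slc4a4, a bicarbonate transporter, at 2.17 CPM against at most 0.112 CPM elsewhere, Cldn10, a claudin, at 2.11 against 0.430 CPM, and Gjb6, a gap junction gene, at 1.19 against 0.239 CPM. The oligodendrocyte genes were Car2, a carbonic anhydrase, at 10.1 against 2.33 CPM, Fa2h, a fatty acid hydroxylase, at 1.73 against 0.0334 CPM, and Ugt8a, Mal and Gjc3, at 0.245 to 0.377 CPM against 0.0318 CPM at most. Inpp5d+/-;NLGF replicate 1 had the next highest neuron sum, 10.9 CPM, with Snap25 at 3.70, Gad1, another gene of GABA synthesis, at 2.02 and Stmn2, an axonal tubulin regulator, at 1.74 CPM. Its Gad1 and Stmn2 were the highest of the 11 libraries, and its Map2 was 0.

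**Figure D2:**
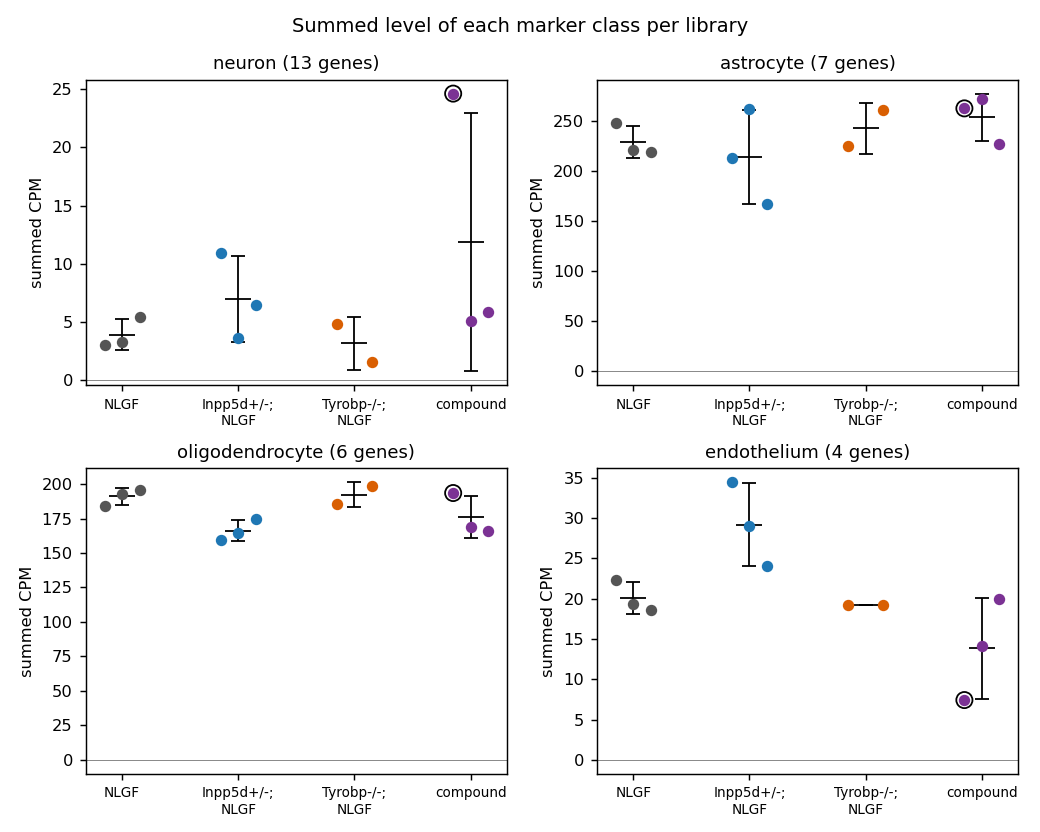
Summed CPM of the genes of each class in each library, with the mean and SD of each genotype as bars and compound replicate 1 ringed. The ringed point lies at 24.6 CPM for neuron genes, above all others, inside the range of the others for astrocyte and oligodendrocyte genes, and at 7.42 CPM, the lowest point, for endothelial genes.

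Compound replicate 1 was singled out on earlier results of these data and held the highest level of 7 of the 13 neuron genes. Lower compound means without it were thus largely set by that choice, and the ratios that follow are a description and no test. For most neuron genes the mean difference of the compound mutant from the other genotypes was smaller or of the other sign without this library. With all 3 compound libraries, 10 of 10 tested neuron genes had a higher mean than in NLGF, with a median log2 ratio of 1.78 (all genes tested, 0.02), and without compound replicate 1 the numbers were 4 higher, 4 lower and 2 at the floor of 3 counts in both groups, with a median of 0. Against Tyrobp-/-;NLGF they were 10 of 10 (median 2.58; all genes, 0.01) and, without that library, 3 higher, 2 lower and 5 at the floor in both groups, with a median of 0. Against Inpp5d+/-;NLGF they were 8 of 10 (median 1.37; all genes, 0.02) and then 3 higher and 7 lower (median -1.20). The comparisons with NLGF and with Tyrobp-/-;NLGF use the same compound libraries. Camk2a alone of the 10 had no smaller ratio without the library, with log2 ratios of 1.58 and then 1.77 against NLGF and 1.04 and then 1.22 against Tyrobp-/-;NLGF.

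**Figure D3:**
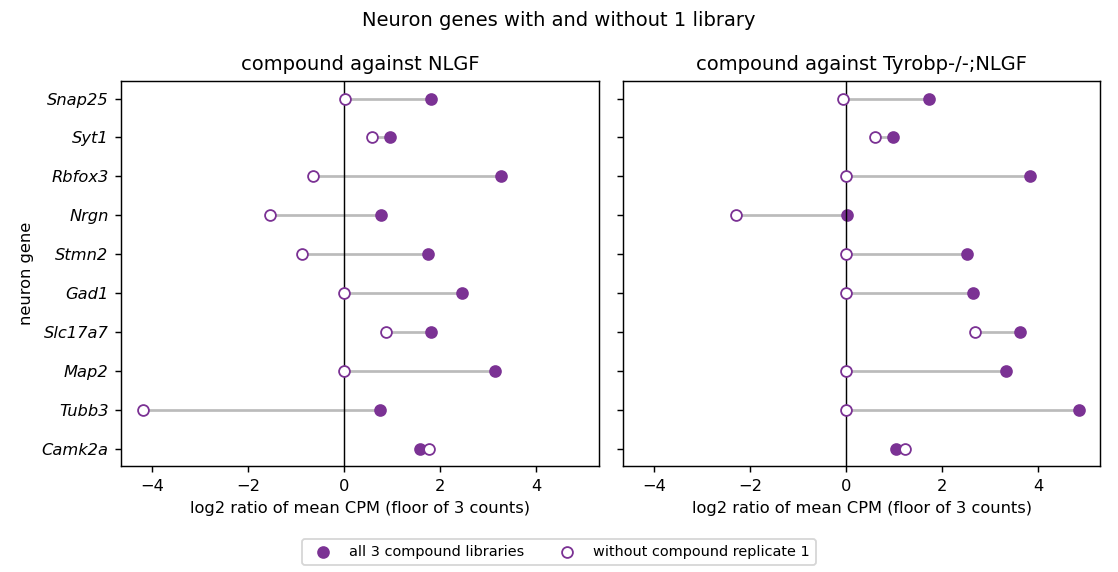
Log2 ratios of mean CPM for the 10 tested neuron genes, compound mutant against NLGF (left) and against Tyrobp-/-;NLGF (right), with all 3 compound libraries (filled) and without compound replicate 1 (open); means below 3 counts were set to that floor, and genes below it in both groups stand at 0. Nearly all open points lie nearer to 0 or below it, and Camk2a stays near its filled point.

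No marker gene passed the test between single genotypes (edgeR quasi-likelihood test, Benjamini-Hochberg adjusted p below 0.05). In Tyrobp-/-;NLGF against NLGF 0 of 25 were called, where 176 genes, 0.863% of all tested, were called. Mag, Mog and Flt1 had an unadjusted p below 0.05, as did 2463 of all 20390 tested genes. DESeq2 called 3 marker genes (Mag, Gja1 and Tubb3) beside 5.08% of all tested genes, and limma-voom 0 beside 1.6%. In the compound mutant against Inpp5d+/-;NLGF 0 were called beside 183 genes (0.897%). Mag, Mog and Flt1 were again below 0.05 unadjusted, beside 2734 of all 20390 tested genes. DESeq2 called 2 (Mag and Mog) beside 5.09% of all tested genes, and limma-voom 2 (Mag and Flt1) beside 0.937%. In the compound mutant against NLGF 0 were called beside 178 genes (0.873%). Below 0.05 unadjusted were 6, namely Mag, Mog, Flt1, Camk2a, Gja1 and Mbp, beside 2658 of all 20390 tested genes. DESeq2 called 3 (Mag, Mog and Gja1) beside 4.9% of all tested genes, and limma-voom 0 beside 1.02%.

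In Inpp5d+/-;NLGF against NLGF 0 of 25 were called beside 0 genes (0.0%), with Gja1 below 0.05 unadjusted, called by DESeq2, and none called by limma-voom. Of all 20390 tested genes, 951 were below 0.05 unadjusted, and DESeq2 called 0.142% and limma-voom 0%. Gja1 had counts there in Inpp5d+/-;NLGF replicate 2 and in no other library of the 2 groups. In the compound mutant against Tyrobp-/-;NLGF 0 were called beside 2 genes (0.00981%), with Flt1, Slc17a7 and Tubb3 below 0.05 unadjusted, Tubb3 called by DESeq2 and none by limma-voom. Of all 20390 tested genes, 831 were below 0.05 unadjusted there, and DESeq2 called 0.245% and limma-voom 0%. Tubb3 rested there on compound replicate 1, the single library of both groups with a count. Whether effects differed between backgrounds was not tested.

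With both Tyrobp-/- groups averaged against both groups with Tyrobp, 3 of 25 marker genes were called, or 12%, beside 968 of all tested genes (4.75%). Mag and Mog rose and Flt1 fell. DESeq2 called 4 marker genes (Mag, Mog, Gja1 and Tubb3) beside 10.6% of all tested genes, and limma-voom 2 (Mag and Flt1) beside 5.74%. Mag, Mog and Flt1 were also the 3 marker genes whose 5 Tyrobp-/- and 6 other libraries did not overlap, where 6.17% of all tested genes had no overlap. The median log2 fold change of the 25 was 0.14, beside 0.02 for all genes. The 10 neuron genes held no call and had a fitted median of -0.04. By ratio of means their median was 0.79, with 8 higher and 2 lower, and -0.49 without compound replicate 1, so the sign depended on the measure and on that library. The median ratio of means of the 25 was 0.55.

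The sequences just before the starts of these 3 genes are shown because they are the marker genes whose libraries separated by Tyrobp genotype. Each is 250 bases from RefSeq (GRCm38.p6), read 5′ to 3′ on the gene's minus strand, and capitals mark the letters GAGGAA, a core to which the myeloid factor PU.1 is known to bind. They are Flt1 at chr5:147726012-147726261, Mag at chr7:30914864-30915113 and Mog at chr17:37023399-37023648. The Mag stretch is 1 of 3 RefSeq promoters of the gene, 10 bases from the start in the deposited table. The bases just after the start were found near the beginning of a transcript of the annotation for Flt1 and Mog and were not found there for Mag, so the Mag start is less certain.
Flt1: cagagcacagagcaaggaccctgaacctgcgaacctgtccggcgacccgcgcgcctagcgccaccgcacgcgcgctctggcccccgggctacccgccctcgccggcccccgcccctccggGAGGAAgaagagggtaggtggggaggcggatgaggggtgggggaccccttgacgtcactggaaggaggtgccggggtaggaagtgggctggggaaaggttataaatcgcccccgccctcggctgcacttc
Mag: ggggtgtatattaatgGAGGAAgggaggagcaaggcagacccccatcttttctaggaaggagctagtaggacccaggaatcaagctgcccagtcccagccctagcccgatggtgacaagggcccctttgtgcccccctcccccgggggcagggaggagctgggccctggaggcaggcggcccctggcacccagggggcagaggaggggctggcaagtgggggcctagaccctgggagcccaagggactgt
Mog: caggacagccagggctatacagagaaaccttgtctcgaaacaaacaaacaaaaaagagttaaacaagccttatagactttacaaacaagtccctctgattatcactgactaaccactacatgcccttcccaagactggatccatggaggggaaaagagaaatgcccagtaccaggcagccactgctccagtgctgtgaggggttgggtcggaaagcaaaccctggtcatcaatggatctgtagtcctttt
GAGGAA on either strand occurred 1 time in Flt1, 1 time in Mag and 0 times in Mog, and in 7 of the 22 marker genes matched to the promoter table. Of all 32851 promoters of that length 23.3% held it. A gene was counted if any of its RefSeq promoters held the letters, so counts of genes and shares of promoters are not like for like here. The longer letters AGGAAGT, which can overlap GAGGAA by 5 bases, occurred in 2 of the 22 (S100b and Flt1) and in 7.69% of all.

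Mag encodes the myelin-associated glycoprotein, a sialic acid-binding protein of the Siglec family that holds myelin to the axon (chromosome 7, 30899176 to 30914873). It was at 15.6, 14.3 and 19.6 CPM in NLGF, 13.1, 20.5 and 13.8 in Inpp5d+/-;NLGF, 27.2 and 36.6 in Tyrobp-/-;NLGF and 34.3, 35.1 and 31.1 in the compound mutant. All 5 Tyrobp-/- libraries lay above all 6 others. The means were 32.9 ± 3.72 (SD, n = 5) and 16.1 ± 3.16 CPM (SD, n = 6), a ratio of 2.04, and the log2 fold change was 1.02 (SE 0.16, edgeR adjusted p = 0.0085). The step was similar in size in both backgrounds, with log2 fold changes of 0.95 (adjusted p = 0.117) in Tyrobp-/-;NLGF against NLGF and 1.09 (adjusted p = 0.0601) in the compound mutant against Inpp5d+/-;NLGF by edgeR. Between genotypes alike for Tyrobp it was 0.07 and -0.07.

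Mag lies 482 kb from Tyrobp, on the same chromosome. Within 1 Mb of Tyrobp, 83 genes were tested and 10 were called in the averaged comparison, 5 higher and 5 lower. The part of this position in the result was not tested. The call of Mag was lost without Tyrobp-/-;NLGF replicate 2 (log2 fold change 0.90, adjusted p = 0.0502) and without the 2 libraries that held the most of the neutrophil gene S100a8, Tyrobp-/-;NLGF replicate 1 and compound replicate 2 (log2 fold change 1.10, adjusted p = 0.0527). Between 10 and 12 of the 12 neutrophil markers had more than 3 counts in the 5 Tyrobp-/- libraries, against 3 to 11 in the others. Compound replicate 1 had the lowest neutrophil sum of the 5, 256 CPM, and Mag at 34.3 CPM. That sum was still above the highest of the libraries with Tyrobp, 233.2 CPM. The part of neutrophil RNA in the result for Mag was not tested.

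Mog encodes the myelin oligodendrocyte glycoprotein, on the outer face of myelin (chromosome 17, 37010743 to 37023398). It had 0 counts in each of the 6 libraries with Tyrobp, 1 and 75 counts in Tyrobp-/-;NLGF and 20, 103 and 51 counts in the compound mutant. The Tyrobp-/- mean of 0.890 ± 0.680 CPM (SD, n = 5) was at least 13.2-fold higher than the floor of 3 counts per library in the others, with an edgeR adjusted p of 0.0426. The call held without Tyrobp-/-;NLGF replicate 1 (adjusted p = 0.0365) and was lost on leaving out any other single library, with adjusted p up to 0.114. Mag was also higher in the Tyrobp-/- libraries, but Mobp, Cnp and Cldn11 did not show the pattern. Mobp was at 0 to 2.77 CPM in the libraries with Tyrobp and 0 to 2.42 CPM in the Tyrobp-/- ones. Cnp was at 99.9 ± 13.8 (SD, n = 6) and 101 ± 9.30 CPM (SD, n = 5), and Cldn11 at no more than 0.0597 CPM in any Tyrobp-/- library. Tspan2 and Sox8, of the further oligodendrocyte and precursor lists and named after their values were seen, had 0 counts in the 6 libraries with Tyrobp. Tspan2 had 71 and 0 counts in Tyrobp-/-;NLGF and 1, 102 and 9 in the compound mutant. Sox8 had 95 and 2, then 0, 0 and 21 counts. EdgeR called neither Tspan2 nor Sox8 in the averaged comparison. Other genes of these lists, also named after their values were seen, went the other way. Aspa had 51 counts in NLGF replicate 1 and 65 in Inpp5d+/-;NLGF replicate 1. In the Tyrobp-/- libraries its only counts were 4 in compound replicate 1. C1ql1 had 12 and 2 counts in NLGF replicates 2 and 3 and none elsewhere. Cspg4, given below, had no count in any Tyrobp-/- library.

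Mbp had the opposite sign to Mag, with means of 47.1 ± 8.07 (SD, n = 5) in the Tyrobp-/- libraries and 61.8 ± 11.3 CPM (SD, n = 6) in the others, and did not pass (edgeR adjusted p = 0.237). The 3 NLGF libraries lay above all 3 compound libraries, where 18% of all tested genes had no overlap. Inpp5d+/-;NLGF replicate 2, at 42.0 CPM, lay among the Tyrobp-/- values.

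Flt1 encodes VEGF receptor 1, a receptor of endothelium and of monocytes (chromosome 5, 147561604 to 147726011). It was at 7.85, 6.74 and 6.08 CPM in NLGF, 9.04, 15.8 and 15 in Inpp5d+/-;NLGF, 0 in both Tyrobp-/-;NLGF libraries and 0.0377, 0.143 and 2.61 in the compound mutant. The libraries with Tyrobp had 202 to 785 counts of it, and the compound libraries 2, 9 and 130. The means were 10.1 ± 4.24 (SD, n = 6) and 0.559 ± 1.15 CPM (SD, n = 5), so the mean level with Tyrobp was 18.0 times that without. The edgeR test compares averaged groups, and its fitted log2 fold change was -7.645 (adjusted p = 0.0181), a larger step than the ratio of means. In Tyrobp-/-;NLGF it was at least 120-fold lower than in NLGF, against the floor of 3 counts per library, with an adjusted p of 0.0871.

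The highest Flt1 level among the compound libraries was that of replicate 3. Leaving it out removes the Tyrobp-/- value nearest to the libraries with Tyrobp, so lower p-values were largely set by that choice and are no further support. The averaged comparison then had an edgeR adjusted p of 0.000282. Flt1 was also called in Tyrobp-/-;NLGF against NLGF (adjusted p = 0.00325) and in the compound mutant against Inpp5d+/-;NLGF (0.00525) and NLGF (0.0067). The averaged call was lost without Tyrobp-/-;NLGF replicate 1 or replicate 2, and without the 2 libraries highest in S100a8. The fitted log2 fold change was about as large in these 3 fits, at -7.65, -7.64 and -7.37, beside -7.65 with all libraries, though such values depend on the prior count. The compound mutant and Tyrobp-/-;NLGF did not overlap for Flt1, but the difference did not pass (adjusted p = 1, unadjusted p = 0.00862 by edgeR). Between the compound mutant and Tyrobp-/-;NLGF, 18.8% of all tested genes had no overlap. In compound replicate 1, with the lowest neutrophil sum of the 5 Tyrobp-/- libraries, Flt1 was at 0.0377 CPM. The part of neutrophil RNA in the result for Flt1 was not tested.

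The other vessel genes did not follow Flt1. The means of Pecam1 were 9.53 ± 3.65 CPM (SD, n = 5) in the Tyrobp-/- libraries and 5.30 ± 2.41 CPM (SD, n = 6) in the others (edgeR adjusted p = 0.288), so its sign was opposite to that of Flt1. Those of Kdr were 5.87 ± 2.19 (SD, n = 5) and 9.25 ± 4.59 CPM (SD, n = 6), with an adjusted p of 0.440. Cldn5 had counts in 1 library on each side.

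**Figure D4:**
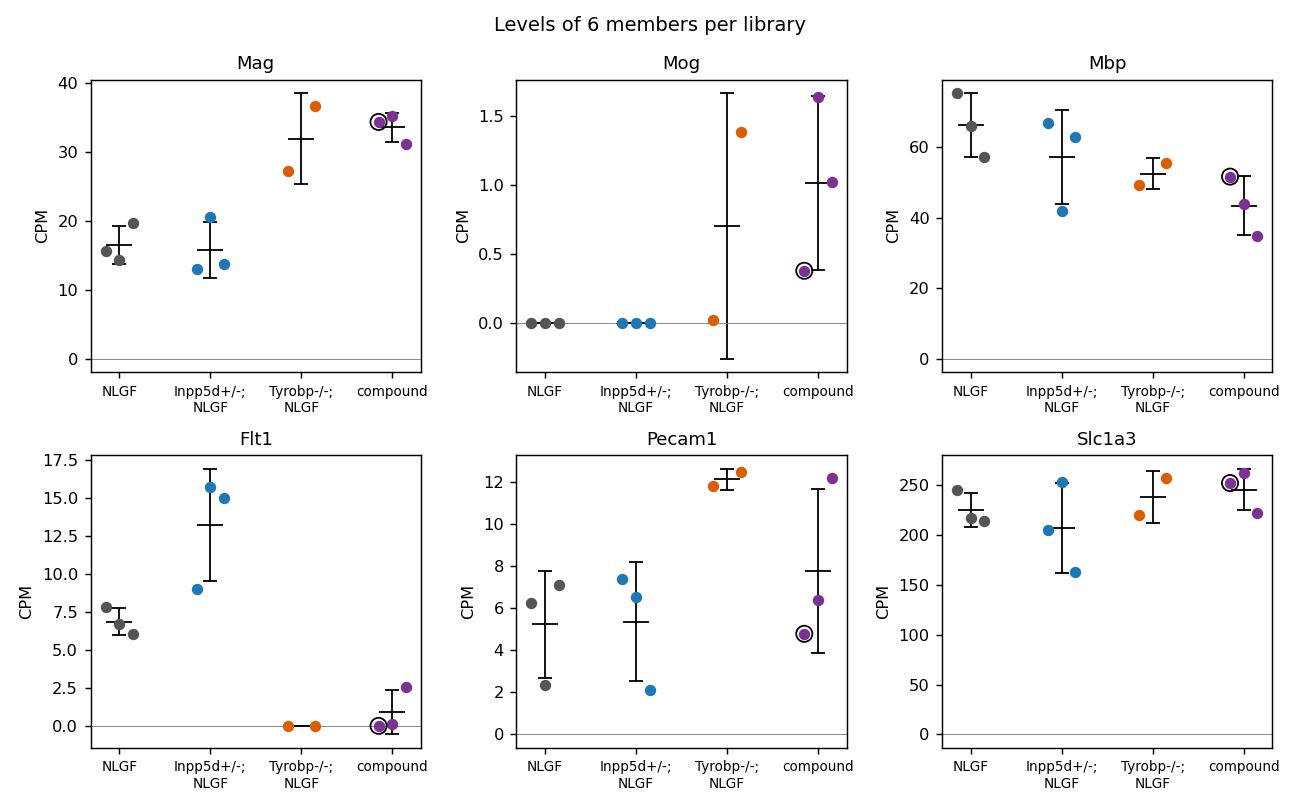
CPM of Mag, Mog, Mbp, Flt1, Pecam1 and Slc1a3 in each library by genotype, with the mean and SD as bars and compound replicate 1 ringed. For Mag all 5 Tyrobp-/- points lie above the 6 others and for Flt1 all 5 lie below, Mog is at 0 in the 6 libraries with Tyrobp, and Mbp, Pecam1 and Slc1a3 overlap.

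Removing compound replicate 1 left Mag (log2 fold change 1.01, edgeR adjusted p = 0.0195) and Flt1 (adjusted p = 0.0114) called in the averaged comparison and not Mog (0.0711). It added Tubb3 as lower (edgeR adjusted p = 0.0479). Tubb3 then had no count in any of the 4 Tyrobp-/- libraries, beside 0.0204 to 1.74 CPM in the 6 with Tyrobp. The library left out had been singled out on its neuron genes and held all Tubb3 counts of the Tyrobp-/- libraries. The direction of this call was thus set by that choice, and the call is a description and no support. With all 11 libraries, the Tubb3 means were 0.998 ± 2.23 (SD, n = 5) and 0.575 ± 0.682 CPM (SD, n = 6), the opposite order. The fitted log2 fold change with all 11 was nevertheless negative, at -2.63 (SE 1.97, edgeR adjusted p = 0.547), and DESeq2 called Tubb3 lower (adjusted p = 6.73e-06).

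Further genes of the same classes were called in the averaged comparison in shares of 0% to 25%, each from 0 to 2 genes, beside 4.75% of all tested genes. The share was 10% of further neuron genes, 25% of oligodendrocyte precursor genes and 8.33% of further endothelial genes. Among 20 tested of 30 further neuron genes, Stmn3, a tubulin regulator, rose from 0.0294 ± 0.0645 (SD, n = 6) to 0.683 ± 0.293 CPM (SD, n = 5; edgeR adjusted p = 0.0352). Calm3 and Vamp2, of calcium sensing and vesicle fusion, ranged over 41.3 to 60.6 and 20.4 to 40.6 CPM. None of 17 tested of 20 further astrocyte genes was called by edgeR. The unadjusted p was below 0.05 for 2, beside 3919 of all 20390 tested genes. The highest of these astrocyte genes was Glul, glutamine synthetase, at 244 to 482 CPM.

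None of 9 tested of 18 further oligodendrocyte genes was called by edgeR either, and 2 were below 0.05 unadjusted. Trf, the iron carrier transferrin, was the highest of them at 425 to 813 CPM, followed by Qdpr, a pterin reductase, and Enpp2, an ectoenzyme that makes lysophosphatidic acid. Among 4 tested of 10 oligodendrocyte precursor genes Cspg4, the NG2 proteoglycan, was at 10.3 ± 8.01 CPM (SD, n = 6) with Tyrobp. It had no count in the 5 Tyrobp-/- libraries, at least 184-fold below that mean (edgeR adjusted p = 0.0221). The values with Tyrobp ran from 0.161 CPM (8 counts) in Inpp5d+/-;NLGF replicate 2, near the floor, to 24.1 CPM in replicate 3 of that genotype. Among 12 tested of 20 further endothelial genes Ly6c1, a surface protein of vessels and monocytes, rose (adjusted p = 0.0210), to between 0.207 and 3.72 CPM from 0.0201 to 0.144 CPM. Stmn3 and Ly6c1 are named because they passed the test, and so after their values were seen. Bsg, a surface glycoprotein of vessels and many other cells, was the highest gene of the last list, at 549 to 770 CPM.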

How the data were processed

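RNA of sorted mouse microglia was sequenced in 11 libraries. Per the labels' protocols the kit was SMART-Seq v4, which does not mark strand, and the submitters' processing notes name STAR 2.7.3a, featureCounts 1.6.4 with GRCm38.p6 and mm10 as builds. The authors deposited raw read counts per gene, with gene lengths and coordinates. The annotation release, strand setting and treatment of reads with several positions were not given in the sources used here, and 7 of the 30 genes share exon sequence with another gene. Groups came from the genotype label. The series' design text counts as many mice as libraries but ties no library to a mouse, so p-values cover only the spread among these libraries. Intervals and floors cover counting error only.

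Genes were kept with filterByExpr (minimum count 10, minimum total 15), which left 20390, and sizes were scaled by TMM. A model with 1 coefficient per group was fitted with edgeR 4.0.16 in R 4.3.3 (glmQLFit, glmQLFTest), with Benjamini-Hochberg adjustment over all tested genes and a threshold of 0.05. The SE was taken from the test statistic. Alternatives were other scalings and filters, DESeq2 1.42.0, limma 3.58.1 (voom with quality weights), robust edgeR, fits on the compared groups, a looser threshold (0.1) and the removal of each library. Leaving out the 2 libraries with most S100a8 was chosen after seeing the data. The procedure was tested on simulated data. The 30 genes, the further lists (neuron, astrocyte, oligodendrocyte and precursor, endothelium, mural cell, choroid plexus and ependyma, fibroblast, microglia, neutrophil) and the tests were chosen with earlier results of these data known. All 30 genes could be named, with up to 4 of each further list by mean level; others are said to be named after their values were seen. The results of some genes of the further lists are not reported here.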

Additional observations from a re-analysis of the deposited data

How the results depend on the processing

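No paired analysis was possible because the labels carry no replicate numbers shared between groups. The log2 fold changes of Mag, Mog and Flt1 in the averaged comparison kept their sign under every alternative that gave a value, and those of other genes and comparisons were not tabulated this way. The count of marker genes called in Tyrobp-/-;NLGF against NLGF (0) became 3 with DESeq2, 1 with the compared groups alone and 1 at an adjusted p below 0.1, and 0 to 1 with a library left out. In the compound mutant against Inpp5d+/-;NLGF (0) it became 1 with total counts as size, 1 with a filter of 1 CPM in 3 libraries, 2 with DESeq2, 2 with limma-voom and 1 at 0.1, and 0 to 1 with a library left out. Against NLGF (0) it became 1 with the 1 CPM filter, 3 with DESeq2 and 1 at 0.1, and 0 to 1 with a library left out. DESeq2 gave 1 in Inpp5d+/-;NLGF against NLGF and 1 in the compound mutant against Tyrobp-/-;NLGF, where leaving out a library gave 0 throughout. The calls of Gja1 and Tubb3 by DESeq2 compare groups of which at least 1 had counts in no more than 1 library. In the averaged comparison (3) the count was 0 without the 2 libraries highest in S100a8 and 0 to 3 with a library left out, 0 without Tyrobp-/-;NLGF replicate 2; DESeq2 gave no adjusted p for Flt1. Mog was also lost with limma-voom (adjusted p = 0.0504) and robust edgeR (0.0523). The share of all tested genes called moved as well. With DESeq2 it was 5.08% in Tyrobp-/-;NLGF against NLGF and 10.6% in the averaged comparison. In the compound mutant it was 5.09% against Inpp5d+/-;NLGF and 4.9% against NLGF. With the 1 CPM filter these last 2 shares were 1.79% and 1.64%. The compared groups alone gave 0.416% in Tyrobp-/-;NLGF against NLGF. The cause of these shifts was not tested.

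The log2 level of compound replicate 1 against the median of the other 10 libraries moved with the measure. For neuron genes (2.32) it was 2.73 as a median over genes, 3.15 without the highest gene, 2.79 per kilobase and 2.18 against the other 2 compound libraries. For astrocyte genes (0.22) it was 0.25 with upper-quartile factors, 0.26 with total counts, 1.48 as a median over genes, 1.06 without Slc1a3, 0.26 per kilobase and 0.0741 against the compound libraries. For oligodendrocyte genes (0.11) the values were 0.15, 0.42, 0.15 without the highest gene, 0.17 and 0.21, the first with total counts and the others as before. For endothelial genes (-1.40) they were -1.03 as a median, -1.13 per kilobase and -1.20 against the compound libraries. Many of the 30 genes lie near the floor of 3 counts, where a few counts in 1 library set the level.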

Other observations

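Transcripts of vessel-wall and surface tissue were scarce or uneven across the libraries. Of 10 choroid plexus and ependymal genes, Ttr, which encodes the thyroid hormone carrier transthyretin, ranged from 0.434 CPM in NLGF replicate 2 to 41.5 CPM in compound replicate 1. The highest value elsewhere was 30.6 CPM. Rarres2, the chemerin gene, was steadier, at 4.68 to 8.67 CPM. The summed list came to 6.91 to 40.5 CPM in the 6 libraries with Tyrobp and 12.6 to 56.7 CPM in the 5 Tyrobp-/- libraries. In the averaged comparison edgeR called 0 of its 6 tested genes. An unadjusted p below 0.05 was found for 1 of the 6, beside 3919 of all 20390 tested genes. Mural cell genes summed to 0.161 to 3.03 CPM, with Acta2, smooth muscle actin, at 2.13 CPM at most. Fibroblast genes summed to 0 to 1.02 CPM.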
